A study of Mus musculus with 3 samples.

Results

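The genes described here are the homeobox and Pax regulators of development outside the Hox clusters: those of the Pax, Lhx, Nkx, Dlx, Msx, Irx, Pitx, Emx, Meis and Pbx families and of the sine oculis homeobox family, such as Six4 and Six5. A gene was a member when its family name followed by a number stood alone as the gene name of a locus, and 60 of the 25350 genes with a value in the RNA-seq files were members. The value of a gene is the larger of its summed FPKM over first exons and its summed FPKM over last exons, where FPKM is the number of fragments per kilobase of transcript scaled to the size of the library. Pbx2, Lhx6, Meis1 and Pitx1 lie in loci that carry a second gene name in the files, and these 4 genes are not among the 60.

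RNA was measured in mouse embryonic stem (ES) cells of strain C57BL/6 from 3 lines, with 1 sample of each. WT cells were not targeted. Pcgf1-/- cells were made with Cas9 and sgRNAs against exons 2 and 3 of Pcgf1, brief puromycin selection and growth of single colonies. Pcgf1-/-+Pcgf1 cells are the Pcgf1-/- line after lentiviral transfer of a FLAG-tagged Pcgf1 cDNA and puromycin selection, so they carry the deletion as well, and both are called targeted lines below. All lines grew on mitomycin-C-inactivated mouse embryonic fibroblasts with fetal calf serum and leukemia inhibitory factor. No line was replicated, so no difference below has a replicate check and no test across samples was possible. The clone, the virus and the selection cannot be told apart from the loss or return of Pcgf1, and in bulk RNA fewer cells of a type and less RNA per cell cannot be told apart.

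Homeodomain proteins bind DNA through a helix-turn-helix fold, and Pax proteins bind through a paired domain that some of them combine with a homeodomain. They set regional identity in the neural tube, eye, heart, limb, kidney and gut, and most are silent in undifferentiated ES cells, where their CpG-rich promoters are classical sites of Polycomb repression. Pcgf1 is the defining subunit of the variant Polycomb complex PRC1.1, whose subunit Kdm2b binds unmethylated CG dinucleotides, so the CG content of these promoters and the RNA of these genes are the measurements of interest.

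Transcripts of Pcgf1 itself stood at 14.0 FPKM in WT, at 5.88 in Pcgf1-/- and at 7.86 in Pcgf1-/-+Pcgf1. The value in Pcgf1-/- was lower than in WT but not at 0, and RNA without exons 2 and 3 would still count towards it. ES cell markers were high in every sample, with a summed FPKM between 2152 and 2567 over the 8 measured of 10, and none of the 8 passed 2-fold between Pcgf1-/- and WT. Between Pcgf1-/-+Pcgf1 and Pcgf1-/- 1 of the 8 did, Nanog, with 68.2 FPKM in WT, 46.3 in Pcgf1-/- cells and 123 in Pcgf1-/-+Pcgf1 (log2 ratio 1.41). Markers of the feeder fibroblasts summed to between 353 and 362 over 16 measured of 18, largely Sparc and Fn1, and their median was 0.825 in WT, 0.397 in Pcgf1-/- cells and 0.923 in Pcgf1-/-+Pcgf1. Of these markers 5 were lower past 2-fold in Pcgf1-/- than in WT (31.25%, against 4.98% of all genes) and 0 were higher (against 2.16%). Col1a1 was among the 5, at 1.88, 0.390 and 2.21 FPKM, while Postn and Fap were listed at 0 in all samples. The markers within 2-fold went both ways. Dcn, Twist1 and Sparc were higher in Pcgf1-/- than in WT (log2 ratios 0.96, 0.59 and 0.23). Lum, Col6a2 and Fn1 were lower (-0.85, -0.56 and -0.54). The feeder markers thus differed between samples as well, and their part in the ratios below was not tested. Of the 5 endoderm markers, 2 were higher in Pcgf1-/- than in WT past 2-fold (40%, against 2.16% of all genes), both at low levels. Gata6 had 0.136 FPKM in WT and 0.410 in Pcgf1-/-, and Sox7 had 0.1435 and 0.414. Within 2-fold, Gata4 and Sox17 were higher (log2 ratios 0.75 and 0.26) and Foxa2 was lower, with 0.0864 and 0 FPKM (-0.90). Neural and mesoderm markers passed that limit in either direction in 0 of 5 and 0 of 5.

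Promoters of 4 members are shown because the values below turn on these genes. Pax5 and Six5 had lower values in both targeted lines than in WT, the first exon with most of the RNA of Irx2 differed between samples, and Six4 had the highest level of all members in Pcgf1-/-. The stretches lie directly upstream of the RefSeq start or of the first exon, whichever is further upstream, and are printed 5' to 3' on the strand of the gene in build GRCm38.p6 with each CG dinucleotide in capitals.
Pax5: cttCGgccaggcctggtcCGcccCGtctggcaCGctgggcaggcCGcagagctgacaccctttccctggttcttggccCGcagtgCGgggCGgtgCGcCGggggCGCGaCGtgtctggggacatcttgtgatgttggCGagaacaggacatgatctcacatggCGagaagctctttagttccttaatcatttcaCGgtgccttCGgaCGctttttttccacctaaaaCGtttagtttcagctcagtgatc
Six5: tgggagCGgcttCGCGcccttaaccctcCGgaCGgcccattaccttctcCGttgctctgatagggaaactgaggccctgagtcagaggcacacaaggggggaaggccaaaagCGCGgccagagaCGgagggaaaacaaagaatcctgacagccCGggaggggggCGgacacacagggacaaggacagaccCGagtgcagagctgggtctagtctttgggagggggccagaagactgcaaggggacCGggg
Irx2: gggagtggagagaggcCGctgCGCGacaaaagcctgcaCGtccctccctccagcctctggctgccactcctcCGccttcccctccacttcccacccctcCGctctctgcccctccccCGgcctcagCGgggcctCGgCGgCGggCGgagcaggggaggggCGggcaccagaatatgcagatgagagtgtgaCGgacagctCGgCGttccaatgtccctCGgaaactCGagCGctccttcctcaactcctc
Six4: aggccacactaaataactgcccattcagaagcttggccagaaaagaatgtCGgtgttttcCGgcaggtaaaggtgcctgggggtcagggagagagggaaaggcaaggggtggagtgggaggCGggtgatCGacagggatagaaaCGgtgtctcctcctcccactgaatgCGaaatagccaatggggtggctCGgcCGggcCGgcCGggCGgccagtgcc
The Pax5 stretch is chr4:44710695-44710944 on the minus strand and holds 19 CG dinucleotides in 250 bases, ending 207 bases upstream of the first exon in the files. The Six5 stretch is chr7:19094294-19094543 on the plus strand with 13 CG in 250 bases. For Irx2 it is chr13:72628570-72628819 on the plus strand, also with 19 CG in 250 bases. Six4 has 11 CG in the 219 bases of chr12:73113457-73113675 on the minus strand. The capitals show that CG dinucleotides are spread along the Pax5 and Irx2 stretches, and the RefSeq windows of the other members are summarised further below.

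Most members had low values in all samples or were listed at 0. An FPKM above 0 in at least 1 sample was found for 44 of the 60 (73.3%), against 55.5% of all genes. At 1 FPKM or more in a sample stood 13 members (21.7%), against 38.4% of all genes, and at 5 FPKM or more 3 members (5%), against 27.0%. The median over members above 0 was 0.326 FPKM in WT (37 members), 0.231 in Pcgf1-/- cells (37 members) and 0.305 in Pcgf1-/-+Pcgf1 (39 members), while that over all genes above 0 was 5.04, 5.13 and 4.33. Their detection was thus common and their levels were low. The members together reached 38.1 FPKM in WT, 38.3 in Pcgf1-/- but 30.9 in Pcgf1-/-+Pcgf1, and Pbx3, Pbx4 and Six4 supplied the largest parts of each sum. Over all genes the sums were 409028, 396709 and 369336 in the same order, also lowest in Pcgf1-/-+Pcgf1. Pbx3 and Pbx4 were lowest in that sample, as given below.

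Listed at 0 in every sample were 16 members, among them Dlx1, Lhx3, Msx1, Msx2, Msx3, Nkx1-1, Nkx1-2, Nkx2-1, Nkx2-2, Nkx2-4, Nkx2-9, Nkx3-2, Nkx6-2, Pax4 and Six6. Another 6 members were above 0 in only 1 of the 3 samples, and 7 in only 2. A listed 0 need not mean that RNA was absent. Sox2, which ES cells require, had 29.3 FPKM in Pcgf1-/-+Pcgf1 and 30.2 in Pcgf1-/-, where its locus carries further names, but 0.213 in that locus in WT. No member shares a locus with another name in any sample.

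**Figure D1:**
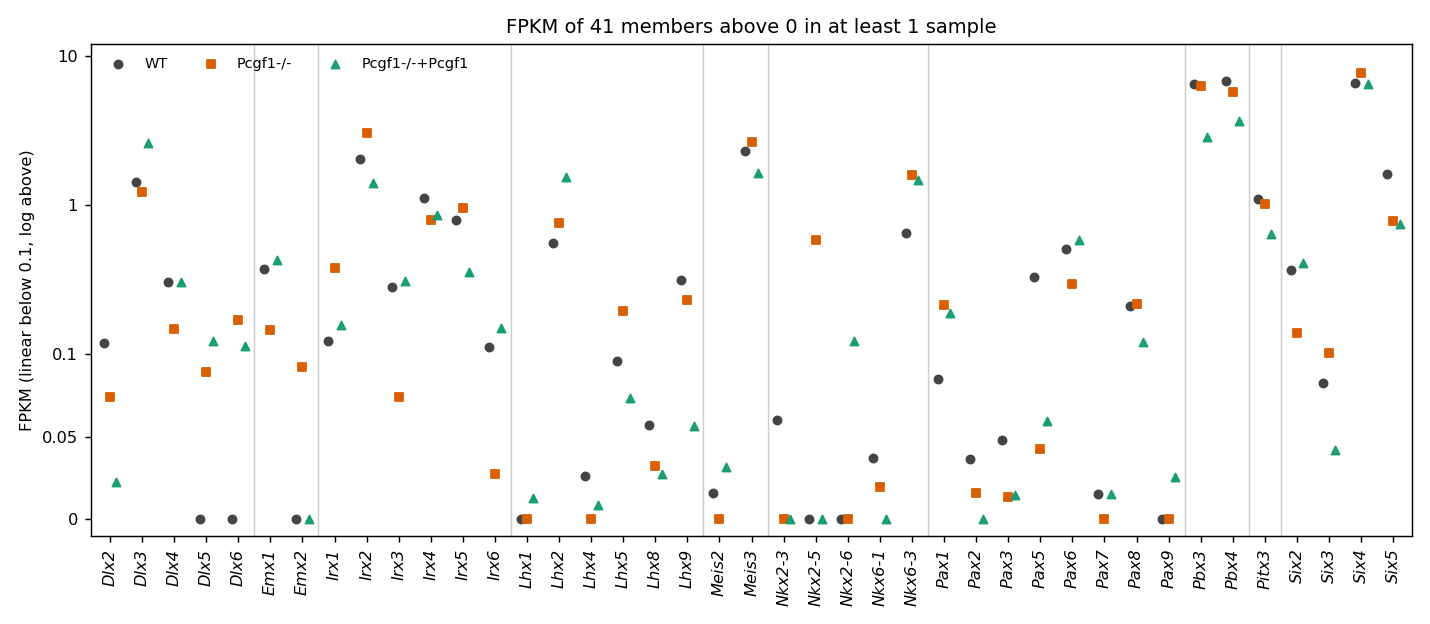
FPKM (vertical axis, linear below 0.1 and log above) of 41 members above 0 in at least 1 sample, grouped by family, with 1 point per sample for WT, Pcgf1-/- and Pcgf1-/-+Pcgf1 and no error bars because each line has 1 sample. Six4, Pbx3 and Pbx4 reach 5 FPKM in WT, most other members lie below 1 FPKM, and the points of Pax5 fall from 0.326 in WT to 0.0424 and 0.0596.

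The comparison of Pcgf1-/- with WT asks how these genes stood once Pcgf1 was lost. Ratios were taken on FPKM plus a pseudocount of 0.1, which understates the change of low genes, and a member was called past 2-fold without a test. Of the members, 3 were lower in Pcgf1-/-, Pax5 and Irx3 among them, and Nkx2-5, Dlx6, Nkx6-3 and Irx1 were higher. The remaining 53 members, 34 of them above 0 in either sample, lay within 2-fold. The 3 lower members are 5% of the 60, against 4.98% of all genes, a share at the background. The 4 higher members are 6.67%, against 2.16% of all genes, and 2 of the 4 are listed at 0 in WT. Among genes above 0 in either sample the background is 9.41% lower and 4.07% higher, for 41 such members. The median log2 ratio of these 41 members was -0.20, with 24 below 0 and 17 above, beside -0.12 over all genes above 0 in either sample. Closest past the limit were Irx3 at -1.14 and Irx1 at 1.10, and closest short of it were Six2 at -0.97 and Emx2 at 0.94. Emx2 is listed at 0 in WT, so its ratio depends on the pseudocount.

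Only 2 of the 7 called members reached 1 FPKM in either sample, among them Nkx6-3. The limit therefore separates mostly genes of low level, and with a pseudocount of 1 FPKM 0 of the 7 remained past 2-fold. At that pseudocount 1.16% of all genes were lower and 0.63% higher past 2-fold.

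**Figure D2:**
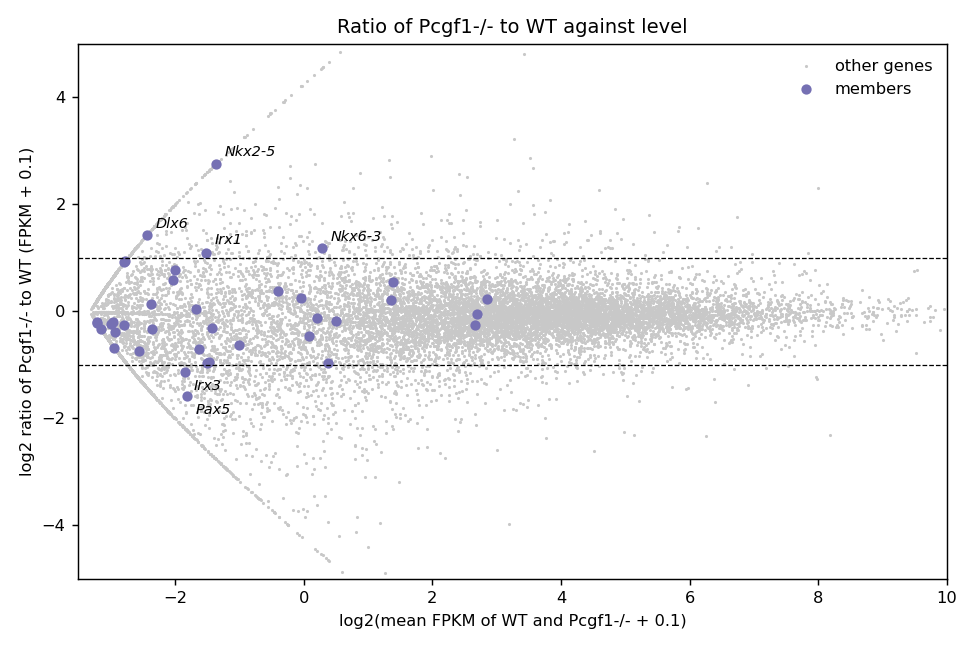
Log2 ratio of Pcgf1-/- to WT on FPKM + 0.1 (vertical axis) against log2 of the mean FPKM of both samples + 0.1 (horizontal axis), for 38 members above 0 in either sample (large points) and 13383 other genes (small points, 112 of them beyond the axes). Dashed lines mark 2-fold. The 6 labelled members lie outside the lines, and Nkx6-3 has the highest mean level of these.

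The Pbx and Meis proteins are homeodomain cofactors of the TALE class that bind DNA together with Hox and other homeodomain proteins. Pbx3, Pbx4 and Six4 were the members that reached 5 FPKM in a sample.

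Pbx3 had 6.51 FPKM in WT, 6.25 in Pcgf1-/- cells and 2.87 in Pcgf1-/-+Pcgf1. WT and Pcgf1-/- differed by a log2 ratio of -0.06, and Pcgf1-/-+Pcgf1 stood lower than both, at -1.10 against Pcgf1-/- and -1.15 against WT. Pbx4 had 6.75, 5.68 and 3.66 FPKM in the same order and stayed within 2-fold throughout, the lowest ratio being -0.86 for Pcgf1-/-+Pcgf1 against WT. The Pbx4 last exon that held 6.75 and 5.68 FPKM in WT and Pcgf1-/- is not listed in Pcgf1-/-+Pcgf1, where another last exon had 0.590, so last exons cannot be compared for Pbx4 with that sample. Meis3, a partner of Pbx proteins in hindbrain patterning, had 2.28, 2.66 and 1.63 FPKM, all within 2-fold of each other. The last exons of Meis3 were listed at 0 in every sample. Meis2, with a role in heart and limb, lay between 0 in Pcgf1-/- and 0.0316 FPKM in Pcgf1-/-+Pcgf1.

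The proteins of the sine oculis family combine a conserved protein interaction domain with a homeodomain and act with Eya co-factors in sense organs, muscle and kidney. Six4 (ENSMUSG00000034460, chr12:73099609-73113456, minus strand) had 6.57 FPKM in WT, 7.72 in Pcgf1-/- cells and 6.49 in Pcgf1-/-+Pcgf1. It was the steadiest of the 3 members above 5 FPKM, with log2 ratios between -0.25 and 0.23. Six5 (ENSMUSG00000040841, chr7:19094594-19098549, plus strand), which lies next to the myotonic dystrophy kinase gene, had 1.61 FPKM in WT, 0.781 in Pcgf1-/- cells and 0.746 in Pcgf1-/-+Pcgf1. Both targeted lines stood below WT, at -0.96 in Pcgf1-/-, just short of 2-fold, and at -1.02 in Pcgf1-/-+Pcgf1, just past it. Six2, which maintains nephron progenitors, had 0.366, 0.139 and 0.408 FPKM, and Six3, a forebrain and eye regulator, had at most 0.102. Six6 was listed at 0.

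Iroquois (Irx) proteins pattern the neural tube, heart and limb, and their genes lie in a pair of clusters. Irx was the only family of more than 3 members with all its members above 0. In the cluster on chromosome 13, Irx2 had 2.03 FPKM in WT, 3.03 in Pcgf1-/- cells and 1.41 in Pcgf1-/-+Pcgf1, a log2 ratio of -1.06 for the last against Pcgf1-/-. The last exons of Irx2 were listed at 0 in every sample, so these values rest on first exons alone. Irx4, a regulator of ventricular heart muscle, had 1.12, 0.791 and 0.858 FPKM. Irx1 had 0.122, 0.375 and 0.157 FPKM, highest in Pcgf1-/- with a log2 ratio of 1.10 to WT.
In the cluster on chromosome 8, Irx3 (ENSMUSG00000031734, chr8:91798525-91802067, minus strand) had 0.283, 0.0742 and 0.310 FPKM and was lowest in Pcgf1-/-. Its log2 ratio was -1.14 against WT in Pcgf1-/- and 1.23 for Pcgf1-/-+Pcgf1 against Pcgf1-/-. Irx5 had 0.792, 0.957 and 0.354 FPKM, and its ratio of -1.22 between Pcgf1-/-+Pcgf1 and Pcgf1-/- points the other way. Irx6 lay between 0.0274 and 0.149 FPKM. Between Pcgf1-/- and WT, Irx1 on chromosome 13 was higher past 2-fold and Irx3 on chromosome 8 was lower past it. Both lay close to the limit, and the intervals of their estimated fragments, given below, overlapped. Irx3 shares exon bases with Irx3os on the opposite strand, and the library kit does not keep the strand.

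Pax genes had 8 of 9 members above 0 but none at 1 FPKM. Pax5 (ENSMUSG00000014030, chr4:44524757-44710487, minus strand), which commits lymphoid progenitors to the B cell lineage, had 0.326 FPKM in WT, 0.0424 in Pcgf1-/- cells and 0.0596 in Pcgf1-/-+Pcgf1. WT stood above both other samples, with log2 ratios of -1.58 for Pcgf1-/- and -1.41 for Pcgf1-/-+Pcgf1. The level in Pcgf1-/-+Pcgf1 was close to that in Pcgf1-/- (log2 ratio 0.16). Pax5 shares exon bases with 5730488B01Rik and Gm12462 on the opposite strand.
Pax6, the eye and forebrain regulator, had 0.503, 0.292 and 0.584 FPKM and stayed within 2-fold. Pax8, of thyroid and kidney, had 0.209, 0.216 and 0.119, and Pax1, of the vertebral column, had 0.0848, 0.214 and 0.188. Pax2, Pax3, Pax7 and Pax9 were at or below 0.0479 FPKM in every sample. The summed FPKM of the family was 1.22 in WT, 0.795 in Pcgf1-/- cells and 1.01 in Pcgf1-/-+Pcgf1.

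The Lhx proteins carry LIM domains through which they bind Ldb co-factors. Lhx2, needed for forebrain and eye, had 0.557 FPKM in WT, 0.754 in Pcgf1-/- cells and 1.53 in Pcgf1-/-+Pcgf1, and was highest in the last. The log2 ratio of Pcgf1-/-+Pcgf1 to WT was 1.31 by this measure but -1.49 by last exons alone, which had 0.133 FPKM in Pcgf1-/-+Pcgf1, so the direction for Lhx2 depends on the exons read. Lhx9, a gonad and limb regulator, had 0.312, 0.231 and 0.0562 FPKM, a log2 ratio of -1.40 for Pcgf1-/-+Pcgf1 against WT. By first exons alone, Lhx9 was already past 2-fold in Pcgf1-/- against WT, at -1.37 in place of -0.32, and not between Pcgf1-/-+Pcgf1 and Pcgf1-/-, at -0.46 in place of -1.08. Lhx5 lay between 0.0736 and 0.194 FPKM, and Lhx1, Lhx4 and Lhx8 did not pass 0.0571.

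Nkx genes were the largest family, with 14 members, and 8 of them were listed at 0. Nkx6-3 (ENSMUSG00000063672, chr8:23153269-23158948, plus strand), a regulator of stomach endocrine cells, had 0.647 FPKM in WT, 1.59 in Pcgf1-/- cells and 1.47 in Pcgf1-/-+Pcgf1. Its level was higher than in WT in both targeted lines, with log2 ratios of 1.18 and 1.07.
Nkx2-5, the early heart regulator, was listed at 0 in WT and in Pcgf1-/-+Pcgf1. It had 0.578 FPKM in Pcgf1-/-, all of it in last-exon values, since its first exons were listed at 0 in every sample. Nkx2-6 was above 0 only in Pcgf1-/-+Pcgf1, at 0.122 FPKM. Nkx2-3 had 0.0598 FPKM in WT and 0 elsewhere, and Nkx6-1 did not pass 0.0372. For these Nkx genes a fold against a listed 0 is not given.

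Dlx proteins pattern limbs, jaws and the forebrain. Dlx3, needed in placenta and epidermis, had 1.41 FPKM in WT, 1.23 in Pcgf1-/- cells and 2.61 in Pcgf1-/-+Pcgf1, a log2 ratio of 1.03 for the last against Pcgf1-/-. The neighbours Dlx5 and Dlx6 were both listed at 0 in WT and above 0 in the other lines, at 0.0889 and 0.123 FPKM for Dlx5 and 0.170 and 0.113 for Dlx6. Dlx6 shares exon bases with Dlx6os2 on the opposite strand. Dlx2 lay between 0.0226 and 0.118 FPKM and Dlx4 between 0.148 and 0.305. Msx1, Msx2 and Msx3, which act in limb buds, teeth and neural crest, were listed at 0 throughout.
Emx1, of the cerebral cortex, had 0.373, 0.146 and 0.425 FPKM, with a log2 ratio of -0.95 to WT in Pcgf1-/-. Emx2 was above 0 only in Pcgf1-/-, at 0.0919 FPKM. Pitx3, of lens and dopamine neurons, had 1.10, 1.01 and 0.639 FPKM and passed 2-fold in no comparison. It shares exon bases with Elovl3 on the opposite strand. In all, 19 of the 60 members share exon bases with a gene on the opposite strand.

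The other comparisons share samples with the first, so their values stand side by side and are no independent check of it. Between Pcgf1-/-+Pcgf1 and Pcgf1-/-, 5 members were lower in the former (8.33% of the 60, against 2.22% of all genes): Irx2, Irx5, Lhx9, Nkx2-5 and Pbx3. Higher were 6 (10% of the 60, against 6.35% of all genes), among them Dlx3, Emx1, Irx3, Nkx2-6 and Six2. Among genes above 0 in either sample, 43 of them members, the background is 4.11% lower and 11.8% higher. The shares over the 60 are not on that base. The median log2 ratio was -0.06 over 43 members above 0 in either sample, beside 0.05 over all such genes. Between Pcgf1-/-+Pcgf1 and WT, 4 members were lower (6.67% of the 60, against 2.36% of all genes): Lhx9, Pax5, Pbx3 and Six5. Higher were 5 (8.33% of the 60, against 3.99% of all genes): Dlx5, Dlx6, Lhx2, Nkx2-6 and Nkx6-3. Here the background among genes above 0 in either sample is 4.32% lower and 7.31% higher, for 42 such members. The median log2 ratio was -0.10 over 42 members, beside -0.07 over all such genes.
Among members past 2-fold between Pcgf1-/- and WT, the log2 ratio of Pcgf1-/-+Pcgf1 to WT was -1.41 for Pax5, 0.10 for Irx3, 1.07 for Nkx6-3 and 0.21 for Irx1. Dlx6, listed at 0 in WT, had 0.113 FPKM in Pcgf1-/-+Pcgf1, and Nkx2-5 was listed at 0 in both. Of the 60 members, 42 passed the limit in no comparison and 18 in at least 1. The share of all genes past it in at least 1 comparison is not given here, so these counts have no background. The members closest past the limit and closest short of it are given in that order. Between Pcgf1-/-+Pcgf1 and Pcgf1-/- they were Irx2 at -1.06 and Emx2 at -0.94, and Dlx3 at 1.03 and Irx6 at 0.97. Between Pcgf1-/-+Pcgf1 and WT they were Six5 at -1.02 and Irx5 at -0.98, and Nkx6-3 at 1.07 and Dlx3 at 0.84. The ratio of Emx2 depends on the pseudocount, since Emx2 is listed at 0 in Pcgf1-/-+Pcgf1.

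The files hold no counts and the depth of the libraries is unknown, but low FPKM values lie in steps. The lowest step, in FPKM multiplied by kilobases of transcript, was at 0.0517 in WT, at 0.0484 in Pcgf1-/- and at 0.0498 in Pcgf1-/-+Pcgf1, read from 71, 71 and 88 genes with 1 annotated transcript of over 2000 bases. If that step is 1 fragment, the libraries were of similar depth and the fragments behind a member can be estimated. An estimate was possible for 22 members whose first-exon and last-exon sums were equal and whose ends matched an annotated transcript, the longest such transcript giving the length, and 9 of these had under 10 fragments in every sample. The intervals given are exact Poisson 95% intervals for counting error only, not for differences between cultures.
Pax5 had an estimated 50 fragments in WT (37.1 to 65.9), 7 in Pcgf1-/- (2.81 to 14.4) and 10 in Pcgf1-/-+Pcgf1 (4.795 to 18.4). Nkx6-3 had 28 in WT (18.6 to 40.5), 74 in Pcgf1-/- cells (58.1 to 92.9) and 66 in Pcgf1-/-+Pcgf1 (51.0 to 84.0). Six5 had 94 (76.0 to 115), 48 (35.4 to 63.6) and 45 (32.8 to 60.2). These 3 are the members of the 22 whose intervals for WT and Pcgf1-/- did not overlap. No share of all genes with intervals apart is given here, so this count has no background and does not set these members apart from other genes.
For Irx3 the estimates were 14, 4 and 16 fragments, and for Irx1 they were 6, 18 and 7, with overlapping intervals in WT and Pcgf1-/-. Overlap of these intervals is no test of a difference, and none was run. Dlx3, with 71, 66 and 137 fragments, and Pbx3, with 344, 353 and 158, had intervals apart from the others only in Pcgf1-/-+Pcgf1. The first exons of Pbx3 in use differ between samples, as given below, so its fragments in Pcgf1-/- and Pcgf1-/-+Pcgf1 may rest partly on other transcripts than the one used for its length.

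**Figure D3:**
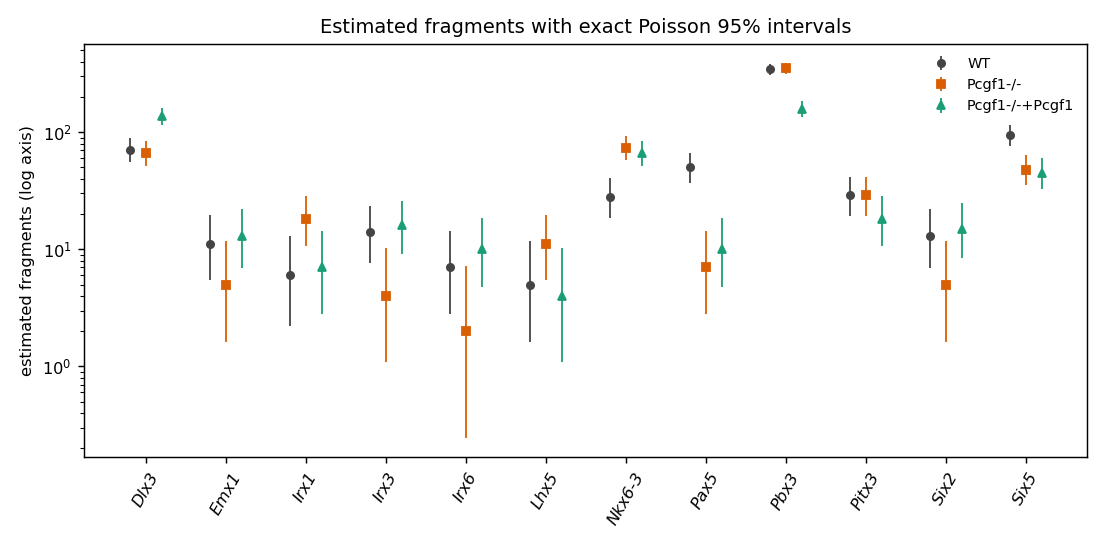
Estimated fragments (vertical log axis) for 12 members with 10 or more in a sample, with exact Poisson 95% intervals as bars and 1 point each for WT, Pcgf1-/- and Pcgf1-/-+Pcgf1. The WT interval lies apart from that of Pcgf1-/- for Nkx6-3, Pax5 and Six5, and the Pcgf1-/-+Pcgf1 intervals of Dlx3 and Pbx3 lie apart from both others.

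The sum over first exons hides which start a gene used. A first exon with a value was found once for 30 members, in 8 members there were 2, in 4 members 3, and Pax6 had 4. For 5 members with first-exon values, Irx2 and Meis3 among them, last-exon sums were 0 in all samples, so last exons give no second reading of their levels. In Irx2 the shares of the first exons differed while its summed first-exon level stayed within 2-fold between Pcgf1-/- and WT. The first exon that begins at position 72628820 of chromosome 13, directly after the printed Irx2 promoter, had 0.339 FPKM in WT, 2.23 in Pcgf1-/- cells and 1.09 in Pcgf1-/-+Pcgf1. That was 16.7%, 73.6% and 77.8% of the first-exon FPKM of the gene, and the rest came from a first exon at 72629825 with 1.69, 0.801 and 0.313 FPKM.
Meis3 was also divided between a pair of first exons, the upstream one holding 53.0% in WT, 76.9% in Pcgf1-/- cells and 28.1% in Pcgf1-/-+Pcgf1. The RNA of Pbx3 came from the first exon at 34372038 of chromosome 2 in WT (6.51 FPKM) and mostly in Pcgf1-/- (5.33), whereas in Pcgf1-/-+Pcgf1 a first exon at 34371253 held 1.78 FPKM, 61.9% of the sum. In Lhx2 a first exon at 38352532 held 91.3% in Pcgf1-/-+Pcgf1 and was listed at 0 in the others. For Pax5 the values of WT and Pcgf1-/- were at the upstream first exon, whose outer end is 44710487, and the value of Pcgf1-/-+Pcgf1 was at the downstream first exon ending at 44683815, so the fragments estimated for Pax5 there may rest on another transcript. The lists also differ in the first exons they hold, since the Irx4 exon at 73259865 of chromosome 13 had 0.996 FPKM in WT and 0.858 in Pcgf1-/-+Pcgf1 and is not listed in Pcgf1-/-. The part of transcript assembly in these differences was not tested.

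**Figure D4:**
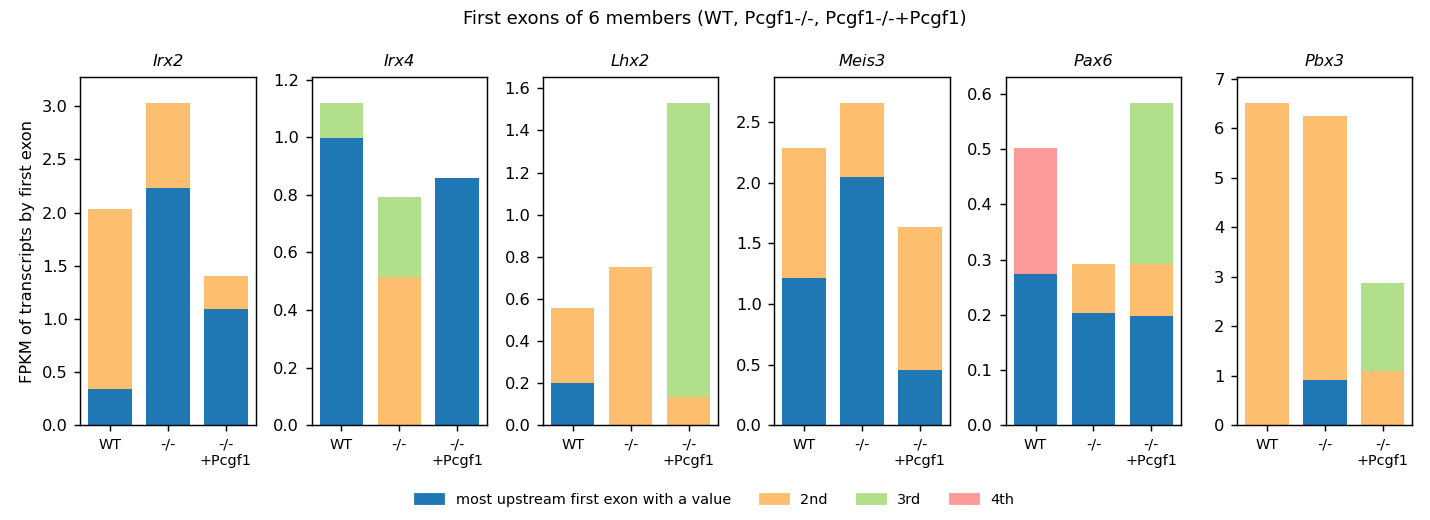
FPKM of the transcripts that start at each first exon (vertical axis, linear, a separate scale for each gene), stacked from the most upstream first exon upward, in WT, Pcgf1-/- and Pcgf1-/-+Pcgf1 for 6 members with more than 1 first exon in use. In Irx2 the most upstream first exon makes up 16.7% of the bar in WT and 73.6% in Pcgf1-/-, and in Pbx3 the third one appears only in Pcgf1-/-+Pcgf1.

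Several members are neighbours on a chromosome. In all, 27 members lie in 11 clusters in which neighbours are less than 1 Mb apart. In a cluster that spans 174 kb of chromosome 12, Six4 had between 6.49 and 7.72 FPKM while Six6 was listed at 0. Nkx2-1, Nkx2-9 and Pax9, within 181 kb of the same chromosome, were at 0 or, for Pax9, at most 0.0255 FPKM. Levels of neighbours thus ranged from 0 to several FPKM. At the pseudocount of 0.1 FPKM no cluster held more than 1 member past 2-fold between Pcgf1-/- and WT. With 0.01 FPKM the neighbours Dlx5 and Dlx6 were both past it. Clusters of other genes were not counted, so this has no background.

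RefSeq windows from 250 bases before to 50 after the start were at hand for 43 members and for 15024 genes in all. The CG dinucleotide reads the same on both strands, and its count is set against the number that the C and G content of the window would give. Members had a median of 20 CG per window, against 14 over all genes, and a median GC content of 62.3% against 56.7%. Their median ratio of observed to expected CG was 0.72, against 0.58, and 31 of the 43 (72.1%) lay above 0.6, against 48.5% of all windows. The median ratio was 0.78 over the 14 windows of members listed at 0 in all samples and 0.70 over the 29 of members above 0. These are descriptions of the letters in the windows and say nothing of methylation or binding there.

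**Figure D5:**
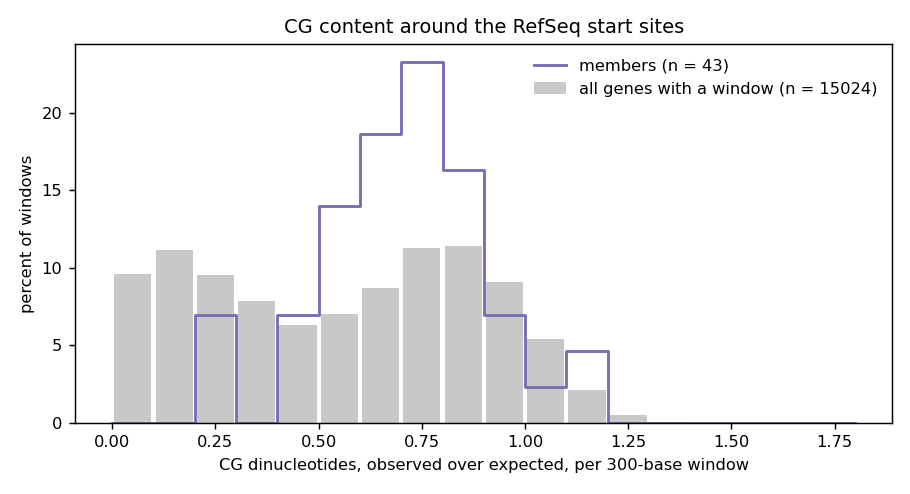
Percent of windows (vertical axis) by the ratio of observed to expected CG dinucleotides in the 300 bases around the RefSeq start (horizontal axis), for 43 members (line) and all 15024 genes with a window (bars). Of the members 72.1% lie above 0.6, against 48.5% of all genes, whose bars form a second group at low ratios.

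The RNA of proteins that act with these factors was compared as well. Of 19 listed partners, 2 were lower (10.5%, against 4.98% of all genes), 1 was higher (5.26%, against 2.16%) and 16 lay within 2-fold between Pcgf1-/- and WT, and the list summed to 168 FPKM in WT, 178 in Pcgf1-/- cells and 142 in Pcgf1-/-+Pcgf1. Ldb1, the main adaptor of LIM proteins, had 45.9, 61.0 and 32.9 FPKM. Ldb2, its relative, had 1.25 FPKM in WT, was listed at 0 in Pcgf1-/- and had 0.217 in Pcgf1-/-+Pcgf1. Pknox2, a TALE partner of Pbx proteins, had 0.555, 0.152 and 1.51 FPKM, lowest in Pcgf1-/-, with a log2 ratio of -1.38 to WT. Eya2, a co-factor of Six4 and its relatives, was the single partner higher in Pcgf1-/- (0.0746, 0.403 and 0.521 FPKM).

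Other homeobox genes outside the Hox clusters were compared in the same way. Of 51 measured of 53 listed, 4 were lower (7.84%, against 4.98% of all genes) and 9 higher (17.6%, against 2.16%) in Pcgf1-/- than in WT, and 42 of the 51 were above 0 in either sample. Otx2, an anterior neural and epiblast regulator, had the lowest ratio of the list, with 2.35 FPKM in WT, 0.382 in Pcgf1-/- cells and 1.66 in Pcgf1-/-+Pcgf1 (log2 ratio -2.35). Tlx3, a sensory neuron regulator, had 2.34, 6.28 and 1.495 FPKM, highest in Pcgf1-/- with a log2 ratio of 1.39. Barx1, of stomach and tooth mesenchyme, had 1.46, 5.46 and 1.52 FPKM (log2 ratio 1.83).
The others past 2-fold with at least 1 FPKM in either sample were all higher. Hmx1, of ear and eye, had 0.820, 2.07 and 0.736 FPKM. Gsx1, of the ventral forebrain, had 0.394, 1.66 and 0.0661 FPKM, the last below WT at a log2 ratio of -1.57. Cdx1, a posterior regulator, had 0.204, 1.06 and 0.811 FPKM and was the only one of these 5 still above WT past 2-fold in Pcgf1-/-+Pcgf1, with a log2 ratio of 1.58.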

How the data were processed

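RNA-seq was analysed in 3 samples, 1 per line. Poly-A RNA was made into libraries with a NEBNext Ultra kit, which does not keep the strand. The submitters' processing notes name TopHat2 2.0.12, Cufflinks 2.2.1 and HTSeq 0.6.0 and the build mm10. The authors deposited transcript events with an FPKM per event, and the program that made these lists is not given in the sources used here. No counts or totals are in the files, so no count test was run. For each single gene name, FPKM was summed over first exons and over last exons, the larger total being used. Names present in all samples were kept, and names turned into dates were left out. Columns of other samples numbered 0. Ratios used a pseudocount of 0.1 FPKM and a limit of 2-fold. The code for sums, ratios and calls was run on simulated tables with known answers, which tests the code and not the calls. Members, lists and limits were chosen with earlier results of these data known. Named were members of at least 1 FPKM, members past 2-fold between Pcgf1-/- and WT, those next to the limit, and listed other genes past 2-fold with at least 1 FPKM; the remaining members are accounted for by family, some with values added after these were seen. Single results of some members are not reported here and were left out of the plots of single members. Alternatives were pseudocounts of 0.01 and 1 FPKM, first exons only, last exons only, median-of-ratios scaling over genes above 5 FPKM in every sample, and a minimum of 1 FPKM. Gene positions are from GENCODE vM21 (mm10), in which all 60 members matched by symbol, and promoters are from RefSeq (GRCm38.p6). Fragments were estimated from first steps of FPKM times length between 0.03 and 0.07. Scripts ran in Python 3.11.15, using pandas 2.3.3, scipy 1.17.1, numpy 2.4.6 and matplotlib 3.10.9.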

Additional observations from a re-analysis of the deposited data

Results flagged for a closer look

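The Pbx2 locus, which also carries the name Gpsm3 and therefore entered no comparison, had 12.1 FPKM in WT, 26.9 in Pcgf1-/- cells and 14.6 in Pcgf1-/-+Pcgf1. Its value in Pcgf1-/- lay above WT past 2-fold (log2 ratio 1.14, 1 sample each, no test), and the FPKM of the locus cannot be divided between both genes here.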

How the results depend on the processing

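With 1 sample per line, leaving out a sample left no comparison, and no test was run. No paired analysis was possible because each group has 1 sample. Numbers of members past 2-fold are given as lower, then higher. With a pseudocount of 0.01 FPKM they were 12 and 7 for Pcgf1-/- against WT, 12 and 12 for Pcgf1-/-+Pcgf1 against Pcgf1-/-, and 10 and 8 for Pcgf1-/-+Pcgf1 against WT, against 8.71% and 4.17%, 3.84% and 10.6%, and 4.52% and 7.33% of all genes. With a pseudocount of 1 FPKM all of these numbers were 0, against 1.16% and 0.63%, 0.85% and 1.46%, and 0.55% and 0.75% of all genes. Among members of at least 1 FPKM in either sample they were 1 and 1 of 12, 2 and 2 of 11, and 2 and 2 of 13, against 6.11% and 2.98%, 3.60% and 7.23%, and 2.65% and 3.84% of all genes at that minimum. First exons only left 3 members lower in Pcgf1-/-+Pcgf1 than in Pcgf1-/- (2.45% of all genes), without Lhx9. Last exons only gave 7 lower in Pcgf1-/-+Pcgf1 than in WT (2.74% of all genes), among them Pbx4, whose last exon in WT is not listed in Pcgf1-/-+Pcgf1. The ratio of Lhx2 between Pcgf1-/-+Pcgf1 and WT reversed to -1.49 with last exons only. The 7 members called between Pcgf1-/- and WT were all still past 2-fold with a pseudocount of 0.01, last exons only and scaling, 6 were with first exons only, and 2 reached 1 FPKM. Scaling shifted log2 ratios of Pcgf1-/-+Pcgf1 to WT by 0.12 and took Six5 to -0.90. The low level of most members limits the ratios, since 9 of 22 with an estimate had under 10 fragments in every sample.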

Other observations

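Besides the Pbx2 locus, 3 loci with a second name hold a gene of these families. The Meis1 locus, which also carries Gm37818, had 1.44 FPKM in WT, 2.62 in Pcgf1-/- cells and 0.218 in Pcgf1-/-+Pcgf1. The value of this locus was thus lowest in Pcgf1-/-+Pcgf1, with log2 ratios of -3.09 to Pcgf1-/- and -2.27 to WT. It cannot be divided here between Gm37818 and Meis1, a TALE cofactor of blood and heart. The Lhx6 locus had 0.651, 0.671 and 0.897 FPKM, and the Pitx1 locus was listed at 0 in every sample.

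Events within the members beyond first and last exons numbered 189 in each sample, such as skipped exons and retained introns. Of these, 61 were above 0 in WT, 79 in Pcgf1-/- cells and 56 in Pcgf1-/-+Pcgf1. Such events of all genes were not counted here, so these numbers have no background.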
